A study of Homo sapiens with 6 samples.

Results

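The 8 genes GORAB, PLEKHM1, ESRRA, CCDC18, HDAC7, NXPE3, C2CD3 and SETD2 were examined transcript by transcript in K562 cells with and without induced Flag-PCBP1. They were chosen by their measured exon inclusion, since an annotated exon of each had shifted between −Dox and +Dox. That inclusion was computed from the estimated counts of these same libraries. Their differences in inclusion and in transcript share are therefore given as a description. Fits over all genes took in the 8 as well, and their calls are counted below. Because of the choice, those calls are no test of the 8 genes. They make up 8 of 62252 genes and 205 of 251612 transcripts matched to the annotation. K562 is a human erythroleukemia line. Both groups were the same stable line, which descends from a clone with a lox cassette at the AAVS1 locus, into which a doxycycline-inducible Flag-tagged PCBP1 and puromycin resistance were exchanged. The 3 −Dox libraries (labelled control) were not treated and the 3 +Dox libraries (labelled PCBP1 OE) were treated with doxycycline, so the drug and the transgene cannot be told apart. Dose and time for these libraries were not given in the sources used here. Nothing says whether the replicates came from separate cultures, so the spread between them may be technical.

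The sum of estimated counts was 84177316, 80104627 and 74766040 in −Dox replicates 1 to 3 and 70905656, 82263502 and 82449808 in +Dox. Summed counts of PCBP1 were 20944, 20992 and 19936 in −Dox and 73062, 79189 and 84219 in +Dox, a log2 fold change of 1.94 ± 0.06 (SE, edgeR, n = 3 per group), which is the direction the labels give. These counts include any transgene reads that match PCBP1. The erythroid factor GATA1 was present in both groups, with 164 ± 6.27 CPM (TMM-scaled, SD, n = 3) without Dox and 178 ± 5.19 CPM with it. Of the markers of other cell types, CD3E, MS4A1 and KRT5 held at most 6 counts in any library, whereas CD3D was at 20.9 ± 0.90 CPM and EPCAM at 45.8 ± 0.46 CPM in −Dox.

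A cassette exon is kept or left out of a messenger RNA when the splicing machinery joins its neighbours to it or to each other. Leaving out an exon whose length is not a multiple of 3 shifts the reading frame and often brings an early stop codon, and such messages can be removed by nonsense-mediated decay (NMD). PCBP1 is a KH-domain protein that binds runs of C in RNA and is known to act in splicing, in translation and as an iron chaperone.

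Inclusion of an exon was the sum over annotated transcripts that hold it between the same neighbouring exons, as a percentage of that sum plus the transcripts that join those neighbours without it. A wider sum over all transcripts that hold or span the exon, whatever their neighbours, is given for the lead exons in which it differs. To hold the exon, a transcript had to have it with exactly the same ends. For each gene the exon with the smallest p in the fit on estimated counts was taken as its lead exon. In all 8 genes, the rarer form of the lead exon was a lone annotated transcript: in 7 genes the transcript that skips the exon, and in NXPE3 the transcript that includes it. Each of these 8 transcripts was listed at exactly 0 in all 3 libraries of one group and above 0 in all 3 of the other, 5 of them in −Dox and 3 in +Dox. None of the 8 has a base that is absent from every other transcript of its gene, but each has a junction of its own, across the skipped exon or into the included one. The 30 bases at each of these junctions (GRCh38, transcribed strand, the last 15 bases of the upstream exon in lower case and the first 15 of the downstream one in capitals) are shown because each is a stretch by which the form differs from the other annotated transcripts of its gene; HDAC7-208 and NXPE3-217 have further junctions of their own.
GORAB-222: taaagcagactaaagGCAAGAAAAATCTCG
PLEKHM1-204: caggctgccatcccgACACATCATCTCAGA
ESRRA-207: gcccccggaagacagGCTTCTCATCGCTGT
CCDC18-209: atatcccagttgccaAATTAAGCTTGCAAT
HDAC7-208: acagccccggcgctgCTCTCCATGGACACG
NXPE3-217: gttactcaggtagagGATGGCTACCAGAGC
C2CD3-236: gctgctattaggcagAAATCTGATACCAGC
SETD2-209: gcacccgacccctgaGCAAAGATTGAAAAT
Each run was found in 1 annotated transcript of its gene. The introns removed in the 7 skip forms, like those on either side of all 8 lead exons, begin with GT and end with AG.

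**Figure D1:**
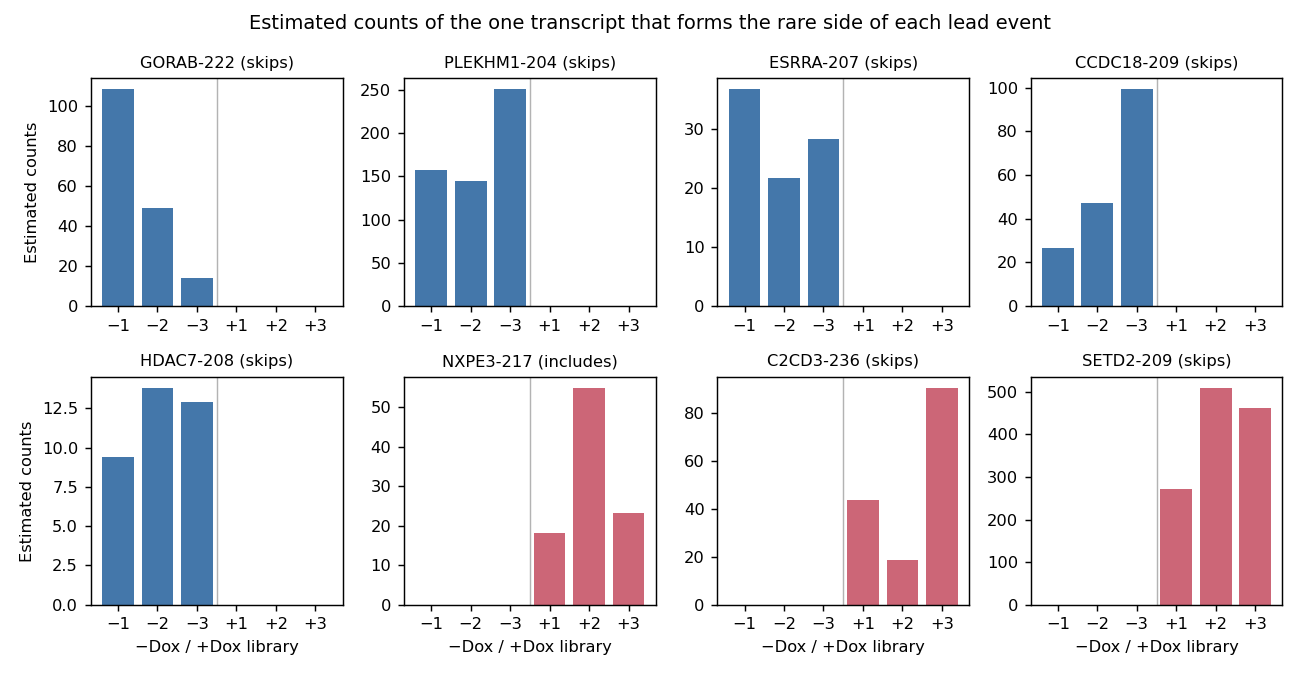
Estimated counts (vertical axis, from 0, scaled to each panel) of the lone transcript behind each lead exon in −Dox replicates 1 to 3 (blue, −1 to −3) and +Dox replicates 1 to 3 (red, +1 to +3). In each of the 8 panels the bars of one group are at 0 and those of the other lie between 9.37 (HDAC7-208) and 509 (SETD2-209).

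GORAB is a golgin-like protein of the Golgi that binds RAB6. Its lead exon spans chr1:170539210-170539571 (362 bases, plus strand) and is coding in GORAB-212, an NMD form and the transcript that includes it between the same neighbouring exons. GORAB-222, which skips it and has no defined coding sequence, was estimated at 108, 49.0 and 14.3 counts in −Dox and at 0 in each +Dox library. Inclusion was 50.8%, 70.3% and 85.4% in −Dox and 100% in each +Dox library, a difference of 31.1 percentage points. The −Dox libraries were spread widely and all lay below +Dox. In TPM, which divides by effective length, inclusion was 67.6%, 82.2% and 92.2% in −Dox and 100% in +Dox, a smaller difference of 19.4 points. Over all transcripts that hold or span the exon, inclusion from counts was 50.8%, 76.0% and 95.6% in −Dox and 100% in +Dox, and the difference was 25.9 points in counts and 17.5 in TPM. The depth was low: 0 counts among the included and skipped sum allowed a skipped share of up to 5.61%, 1.63% and 2.65% in +Dox replicates 1 to 3 (3 counts of the sum, as for all such limits here). These limits cover counting error only: Salmon's counts are estimates that divide reads among transcripts, and the uncertainty of an estimate of 0 was not measured here. A slightly shorter version of the exon, ending 4 bases earlier in GORAB-201 and GORAB-202, rested on the same skip transcript and differed by 15.6 points in counts and 19.9 points in TPM. Summed over all transcripts that hold or span this shorter version, the difference was 6.15 points in counts and 9.89 in TPM. The transcript with the largest shift in share of the gene was GORAB-215, an NMD form, with 0%, 2.52% and 0% of the counts in −Dox and 6.90%, 6.25% and 9.58% in +Dox. Its share of TPM was 0.756% ± 1.31 in −Dox and 7.16% ± 1.75 in +Dox (SD, n = 3), so the groups did not overlap in either quantity.

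PLEKHM1 is an adaptor of late endosomes and lysosomes that binds RAB7 and the HOPS tethering complex. The exon at chr17:45477900-45478147 (248 bases, minus strand, coding) was skipped by PLEKHM1-204, an NMD form with 158, 144 and 250 counts in −Dox and 0 in each +Dox library. Inclusion was 75.4%, 77.1% and 54.7% in −Dox and 100% in each +Dox library, a difference of 30.9 points in counts and 24.6 points in TPM. Over all transcripts that hold or span the exon, whatever their neighbouring exons, inclusion was 77.8% in −Dox and 99.8% in +Dox, so the difference was 22.0 points. PLEKHM1-204 was also the transcript with the largest shift in share of counts: 12.7%, 13.8% and 24.8% of the gene's counts in −Dox and 0 in +Dox. Its share of TPM in −Dox was 8.35% ± 2.40, and in TPM the share of PLEKHM1-201 shifted more, from 6.31% ± 6.32 to 15.9% ± 7.06. Among the coding forms, PLEKHM1-222 went from 16.8% ± 1.55 to 26.4% ± 2.71 of the counts with no overlap. The reference coding transcript PLEKHM1-201 took 13.7%, 22.9% and 0% in −Dox and 17.2%, 33.9% and 33.5% in +Dox, with overlap. PLEKHM1P1, a pseudogene copy, had 51, 0 and 3 counts in −Dox and 30, 74 and 34 in +Dox, and how far its reads and those of PLEKHM1 were exchanged was not tested.

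CCDC18 is a coiled-coil protein. Its lead exon at chr1:93210850-93210926 (77 bases, plus strand) is used by CCDC18-213, an NMD form in which these bases are not coding, and is skipped by CCDC18-209, another NMD form. CCDC18-209 held 26.4, 47.2 and 99.2 counts in −Dox and 0 in each +Dox library, against 578 to 685 counts of CCDC18-213 in −Dox and 744 to 850 in +Dox. Inclusion from counts was 96.3%, 92.4% and 86.5% in −Dox and 100% in +Dox, a difference of 8.25 points. From TPM it was 85.7%, 74.1% and 59.8% in −Dox and 100% in +Dox, a difference of 26.8 points, over 3 times that in counts. The transcripts differ in length, 6426 bases for CCDC18-213 and 1751 for CCDC18-209, and TPM weights the shorter one more. The limit on the skipped share in +Dox was 0.403%, 0.353% and 0.393%. A longer version of the exon (125 bases, coding), held by 5 transcripts with CCDC18-212 among them, rested on the same skip form and differed by 2.5 points in counts and 5.96 in TPM. Of the gene's counts, CCDC18-209 was 1.72% ± 1.23 in −Dox. CCDC18-212, the transcript with the largest shift in share of counts, held 18.2% ± 4.91 in −Dox and 25.9% ± 8.56 in +Dox, and the groups overlapped. In share of TPM the retained-intron form CCDC18-205 shifted more, from 20.7% ± 7.1 to 31.0% ± 4.15, also with overlap.

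C2CD3 is a centriolar protein needed for distal appendages and cilia. The exon at chr11:74122988-74123135 (148 bases, minus strand, coding) is held by 20 annotated transcripts and skipped by C2CD3-236, an NMD form listed at 0 in each −Dox library and at 43.9, 18.6 and 90.7 counts in +Dox. Inclusion was 100% in each −Dox library and 94.8%, 98.4% and 89.0% in +Dox, a difference of −5.94 points in counts and −5.42 points in TPM. In counts it was −3.41 points without +Dox replicate 3 and −8.11 points without +Dox replicate 2. In −Dox the limit on the skipped share was 0.261%, 0.321% and 0.366%. No other transcript spans the exon, so the wider sum was the same. The skip form was 1.98% ± 1.5 of the gene's counts in +Dox. C2CD3-225, a coding transcript of 2401 bases, had the largest shift in share of counts, from 5.03% ± 0.89 to 7.73% ± 0.99 of the counts and from 5.99% ± 1.34 to 9.19% ± 1.12 of TPM. C2CD3-206, a retained-intron form, went the other way without overlap, from 7.62% ± 0.37 to 5.13% ± 0.85 of the counts, and had the largest shift in share of TPM, from 21.3% ± 1.47 to 14.5% ± 2.28.

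ESRRA is an orphan nuclear receptor known for its part in mitochondrial gene expression. The exon at chr11:64314741-64314911 (171 bases, plus strand, coding) is the only lead exon whose length is a multiple of 3. ESRRA-207, a coding transcript annotated as incomplete, skips it and held 36.8, 21.7 and 28.4 counts in −Dox and 0 in each +Dox library. Because the included forms held 3563 to 3709 counts in −Dox, inclusion was 99.0%, 99.4% and 99.2% there and 100% in +Dox, a difference of 0.783 points in counts and 3.65 points in TPM. Over all transcripts that hold or span the exon, +Dox was 98.2% to 98.9% in counts, and in TPM inclusion was 89.0% in −Dox and 92.2% in +Dox with overlap. A further 2 events of ESRRA, chosen for mention after their values were seen, had larger differences and fewer counts. The exon that starts 3 bases later differed by 9.71 points in counts and 34.1 in TPM. Summed over all transcripts that hold or span it, that difference was 3.66 points in counts and 5.32 in TPM, and the groups overlapped in both. The exon at chr11:64315001-64315270 differed by −34.6 points in counts, with ESRRA-207 as the form that includes it and the retained-intron form ESRRA-204 as the form that skips it. Summed over all transcripts that hold or span it, that exon was included at 98.6% and 98.6%. The reference coding transcript ESRRA-201 had the largest shift in share, from 56.6% ± 4.19 to 64.1% ± 1.38 of the counts and from 46.1% ± 2.85 to 54.7% ± 2.04 of TPM, without overlap. The pseudogene copies ESRRAP1 and ESRRAP2 held at most 3 counts in any library.

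HDAC7 is a class IIa histone deacetylase that binds MEF2 factors. HDAC7-208, an NMD form that skips the exon at chr12:47798785-47798972 (188 bases, minus strand, coding), held 9.37, 13.8 and 12.9 counts in −Dox and 0 in each +Dox library. Inclusion was 95.4%, 95.0% and 94.5% in −Dox and 100% in +Dox, a difference of 5.06 points in counts and 4.66 points in TPM. The transcripts that share its neighbouring exons carried few counts, and the limit on the skipped share in +Dox was 2.55%, 1.81% and 1.93%. Over all transcripts that hold or span the exon, 4459 to 4499 included counts stood against the same skipped counts in −Dox, and the difference was 0.268 points in counts and 1.76 in TPM. The reference coding transcript HDAC7-201 shifted most in share, from 17.5% ± 2.44 to 25.0% ± 2.37 of the counts and from 12.2% ± 1.44 to 18.2% ± 1.54 of TPM, without overlap. HDAC7-202, coding and 1 exon shorter, was at 32.9% ± 5.4 and 27.3% ± 2.11 of the counts, with overlap.

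SETD2 is the methyltransferase that trimethylates lysine 36 of histone H3. Its lead exon is a microexon of 16 bases at chr3:47126648-47126663 (minus strand, coding), shown here in capitals with 40 intron bases on each side because it lies at the short end of all exons tested, of which 0.702% have at most 16 bases.
SETD2 microexon: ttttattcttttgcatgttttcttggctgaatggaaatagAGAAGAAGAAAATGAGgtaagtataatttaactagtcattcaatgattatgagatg
SETD2-209, annotated as coding and lacking these 16 bases, was listed at 0 in each −Dox library and at 272, 509 and 462 counts in +Dox. SETD2-202, which holds them, was at 5123, 3899 and 3643 counts in −Dox and 3611, 4197 and 4021 in +Dox. Inclusion was 100% in each −Dox library and 93.0%, 89.2% and 89.7% in +Dox, a difference of −9.37 points in counts and −9.63 points in TPM. The limit on the skipped share in −Dox was 0.0586%, 0.077% and 0.0824%. Another transcript, SETD2-221, also spans the microexon without it and was present in both groups, at 639, 541 and 778 counts in −Dox and 632, 216 and 466 in +Dox. With it and all other spanning transcripts summed, inclusion from counts was 89.2%, 88.2% and 82.4% in −Dox and 80.1%, 85.4% and 81.5% in +Dox, and the groups overlapped. From TPM these sums gave 72.3% in −Dox and 72.4% in +Dox, a difference of 0.165 points, the opposite sign to that of SETD2-209 against SETD2-202. SETD2-209 took 4.22%, 6.41% and 6.31% of the gene's counts in +Dox, the largest shift in share of counts. In share of TPM SETD2-221 shifted slightly more, from 16.5% ± 2.77 to 11.9% ± 6.18, with overlap.

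NXPE3 is a member of the neurexophilin and PC-esterase family whose function is little known. NXPE3-217, an NMD form, holds the exon at chr3:101795899-101795981 (83 bases, plus strand, 48 of them coding), which 22 transcripts skip. It was listed at 0 in each −Dox library and at 18.2, 54.9 and 23.3 counts in +Dox. Inclusion was 0% in −Dox and 2.98%, 7.84% and 4.26% in +Dox, a difference of 5.02 points in counts and 4.69 in TPM. Transcripts with other neighbouring exons also include these bases, at 27.1 and 21.6 counts in −Dox replicates 2 and 3. Over all transcripts, inclusion was 0%, 5.73% and 4.60% in −Dox and 2.98%, 7.77% and 4.02% in +Dox, and the groups overlapped. NXPE3-207, a coding form and the ninth all-or-none transcript of the 8 genes, shifted most in share: 17.8%, 10.5% and 12.2% of the counts in −Dox and 0 in each +Dox library. Its share of TPM in −Dox was 12.2% ± 3.18. Other coding forms of NXPE3 were at 0 in some replicates of a group and above 0 in others: NXPE3-203 was estimated at 228, 0 and 96.1 counts in −Dox and 10.2, 285 and 153 in +Dox.

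**Figure D2:**
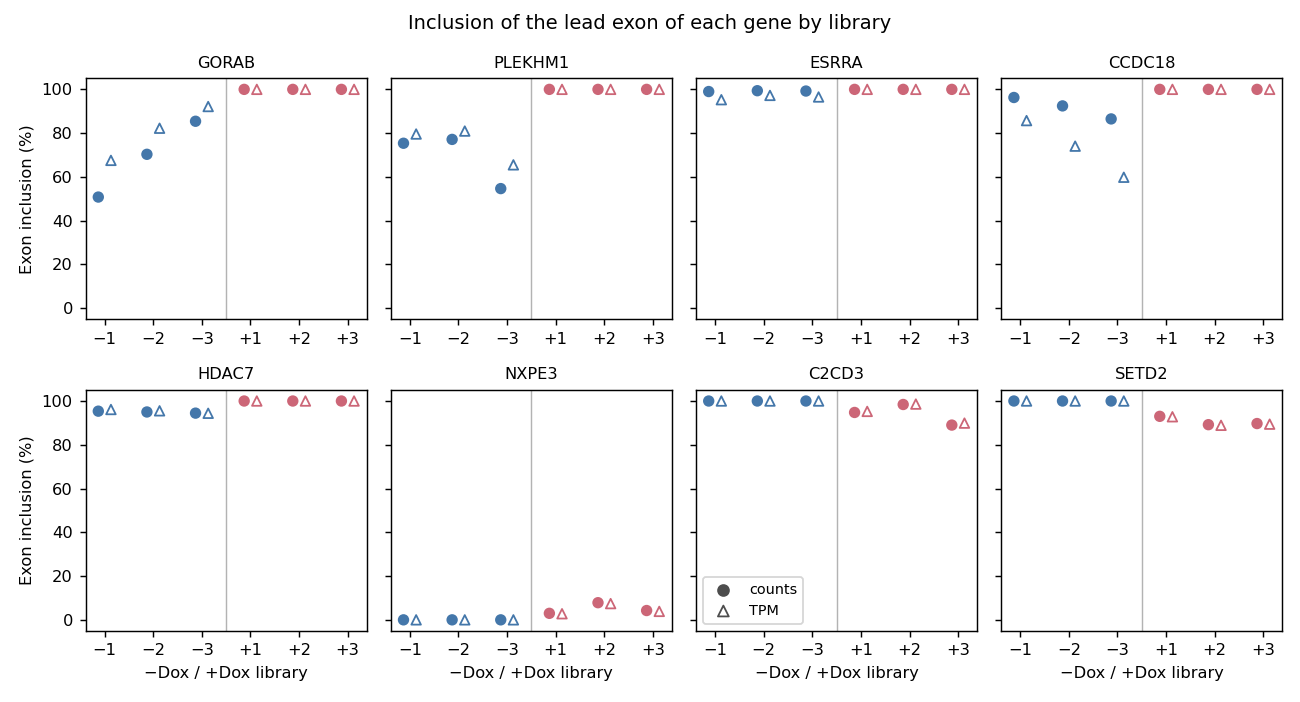
Inclusion of the lead exon (%, vertical axis) in each −Dox (blue, −1 to −3) and +Dox (red, +1 to +3) library, from estimated counts (filled circles) and from TPM (open triangles). One group sits at 100%, or at 0% for NXPE3, in every panel, and the quantities lie furthest apart in CCDC18, where −Dox was 86.5% to 96.3% in counts and 59.8% to 85.7% in TPM.

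The direction of the lead exon was the same in counts and TPM in 8 of 8 genes, and over all their events that passed the filter it was the same in 59 of 59. Both quantities are made from the same estimate for each transcript, so this is no second measurement. The limits used for a call were an adjusted p under 0.05 (limma, Benjamini-Hochberg over all events) and a difference above 5 points, with a pseudocount of 0.5 counts or 0.1 TPM. On counts, 12 of 26738 events passed (0.0449%), and 7 of the 12 belonged to 6 of the 8 genes, which the choice of genes fixed. HDAC7 and NXPE3, at 5.06 and 5.02 points, were just inside the limit of 5 points, and GORAB and C2CD3 were not among the 6 genes. Since these same values served to choose the 8 genes, being called or not is no test of any of them. Of the 12 events, 12 had a form at 0 throughout one group. The others belonged to HCG18, TIMM9 (2 events) and ENSG00000291079 (2 events), named after their values were seen. On TPM, 0 of 26738 events passed (0%), with a smallest adjusted p of 0.169, although 843 had an unadjusted p under 0.05 and a difference above 5 points.

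The count of calls followed the pseudocount, the value added to each form before the ratio was taken. On counts it was 19 events at 0.1, 12 at 0.5, 9 at 1 and 1 at 10, and the number of the 8 genes with a called event was 8, 6, 5 and 1. On TPM it was 16 events at 0.01 TPM, with 3 of the 8 genes, and 0 at 0.1 and at 1 TPM. Without the filter on low values, and with 1 event per gene, the genes called on counts were 6 and 7.

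**Figure D3:**
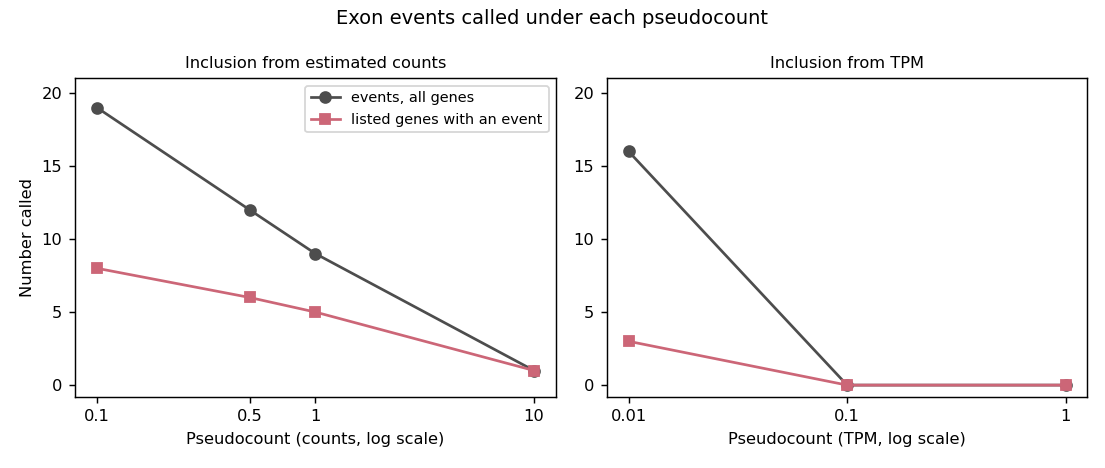
Number of exon events called (grey circles, all genes) and number of the 8 genes with a called event (red squares) against the pseudocount (log axis), from estimated counts (left) and TPM (right). Calls fall from 19 events to 1 between 0.1 and 10 counts, and from 16 to 0 between 0.01 and 0.1 TPM.

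**Figure D4:**
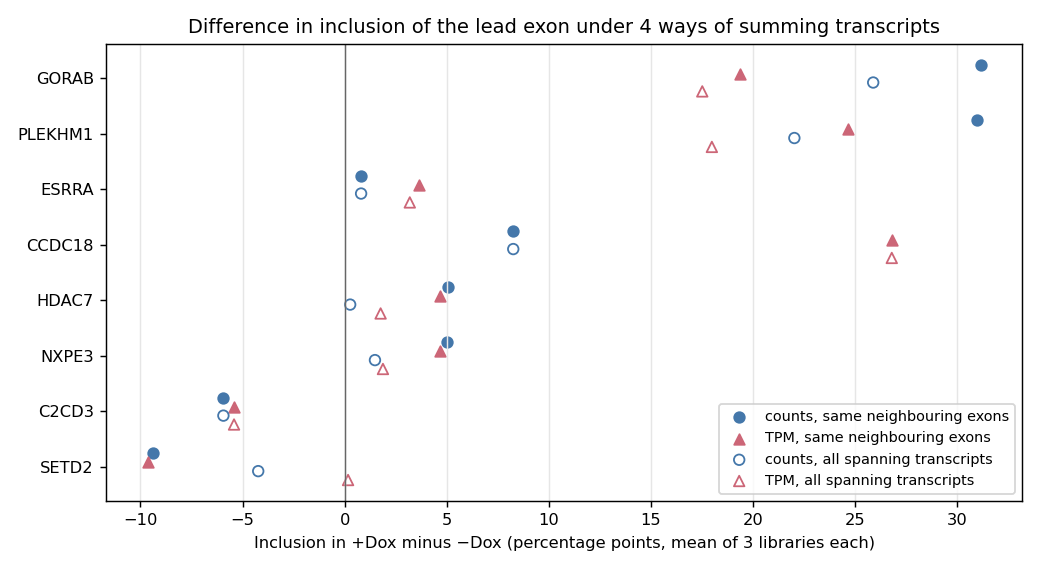
Inclusion of the lead exon in +Dox minus −Dox (percentage points, means of 3 libraries each) for the 8 genes, from counts (blue circles) and TPM (red triangles), for transcripts with the same neighbouring exons (filled) and for all transcripts that hold or span the exon (open). GORAB and PLEKHM1 stay above 17 points in each version drawn. For the shorter version of the GORAB exon, not drawn, the sums over all spanning transcripts gave 6.15 points in counts and 9.89 in TPM. HDAC7 and NXPE3 fall below 2 points when all spanning transcripts are summed, and SETD2 lies between −9.63 and 0.165.

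Transcripts at 0 in all libraries of one group and above 0 in all of the other were 395 of 86384 with a mean of at least 10 counts (0.457%), and events with a form of that kind were 183 of 26738 (0.684%). With no limit on the mean, the 8 genes hold 9 transcripts of this all-or-none pattern. Of their tested events, 12 rest on such a transcript. The choice of the genes fixed both numbers. The HDAC7 transcript among the 9 lies below a mean of 10 counts. The 9 and the 12 were thus counted by other rules than the 395 and the 183, and are not set beside those percentages. Values at 0 were common outside this pattern as well. In all genes, 18397 of the 86384 transcripts (21.3%) were at 0 in 1 to 5 libraries. As a share of the gene, 26 transcripts of the 8 genes passed the filter of a mean of 10 counts and 1 TPM, and 0 were among those called in counts or in TPM. Across all genes, 7 of 33216 transcript shares were called in counts (0.0211%) and 12 in TPM (0.0361%). Of the 9 all-or-none transcripts of the 8 genes, 0 reached that filter. Of the 54 transcripts with at least 5% of a gene's counts or TPM in a group, 52 had the same direction of share in both quantities.

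Length and runs of C, features of the lead exons that the choice did not use, were set beside those of all exons tested. Their length was not a multiple of 3 in 7 of 8, and was one in 41.0% of the 25065 exons tested. The exons were coding throughout in 6 of 8. Of the 8 lone transcripts, 5 were annotated as NMD forms. For the coding and NMD counts no value over all exons or transcripts is given. The run CCCC, searched on the transcribed strand, was in the 100 bases before the exon in 2 of 8 lead exons (ESRRA and HDAC7) and in 27.4% of all tested exons. It was inside the exon in 5 of 8, against 28.1% of all, and in the 100 bases after it in 3 of 8 (PLEKHM1, ESRRA and HDAC7), against 23.8%. The median length was 160 bases in lead exons and 112 in all, and a longer exon has more room for the run. ESRRA and HDAC7 had the run on both sides, and the windows of HDAC7 are printed, with runs of C of at least 4 in capitals, since the ESRRA window reaches into the next exon.
HDAC7 before (chr12:47798973-47799072): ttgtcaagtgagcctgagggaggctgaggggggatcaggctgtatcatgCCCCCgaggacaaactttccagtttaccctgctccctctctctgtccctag
HDAC7 after (chr12:47798685-47798784): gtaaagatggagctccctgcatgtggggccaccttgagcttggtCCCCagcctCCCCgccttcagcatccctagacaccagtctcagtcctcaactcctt
A match of these letters is a description and not a binding site.

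Counts were then summed over the transcripts of each gene. CCDC18 had 43.9 ± 1.1 CPM (SD, n = 3) without Dox and 61.5 ± 1.19 CPM with it, a log2 fold change of 0.48 ± 0.05 (SE, edgeR, n = 3 per group). PLEKHM1 was at 13.9 ± 0.66 and 16.8 ± 1.42 CPM, a log2 fold change of 0.28 ± 0.08, whereas its summed TPM was 5.12 ± 0.92 and 5.21 ± 0.37. HDAC7 was at 106 ± 0.96 and 92.6 ± 1.63 CPM, a log2 fold change of −0.20 ± 0.04. These 3 genes were among the 15.8% of 21045 genes with an adjusted p under 0.05 in edgeR's quasi-likelihood test, and 0 of the 8 were among the 1.46% that also had an absolute log2 fold change above 1. Gene totals come from the same contrast as the choice of the genes, so they too are a description. PLEKHM1 lost that place when −Dox replicate 2 or 3 or +Dox replicate 2 or 3 was left out, with log2 fold changes of 0.25, 0.27, 0.27 and 0.23, and also under the replicate block, at 0.28. NXPE3 was at 0.27 ± 0.11 and entered it without −Dox replicate 1, at 0.38. ESRRA was at −0.08 ± 0.06, GORAB at 0.05 ± 0.08, C2CD3 at 0.04 ± 0.06 and SETD2 at −0.02 ± 0.05.

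**Figure D5:**
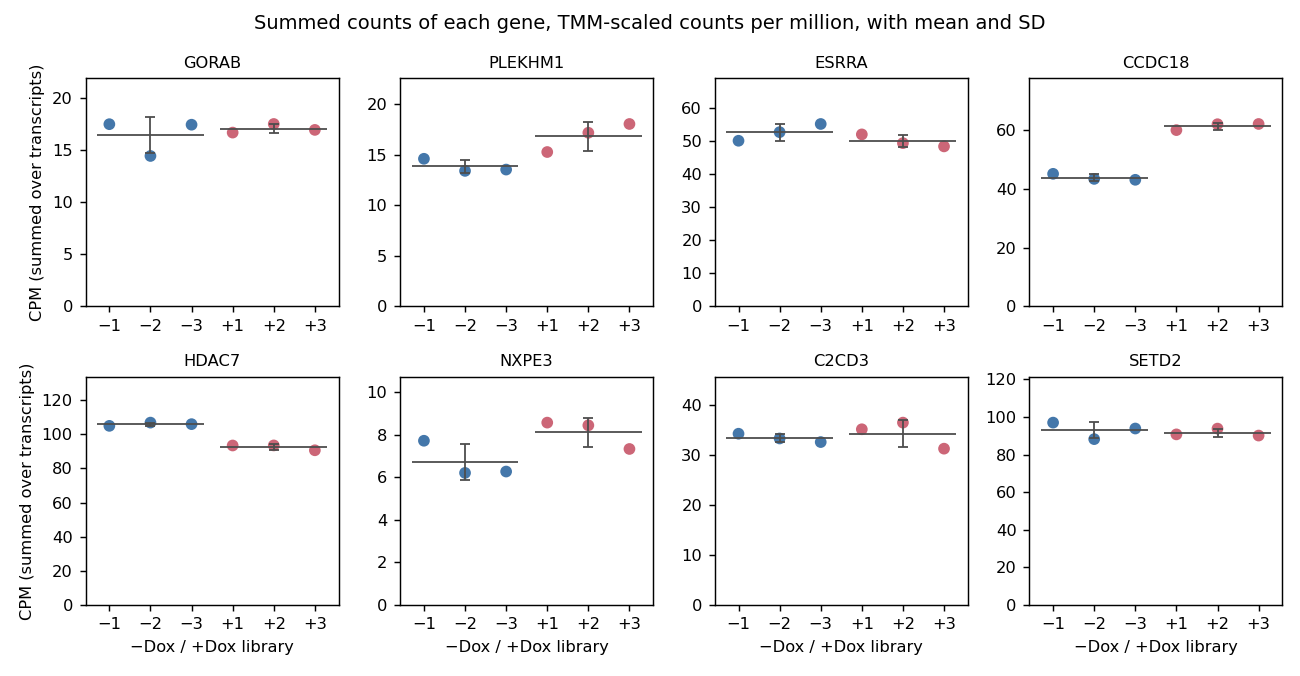
Counts summed over the transcripts of each gene (TMM-scaled CPM, axes from 0) in each −Dox (blue) and +Dox (red) library, with mean (line) and SD (bar, n = 3). CCDC18 lies at a mean of 43.9 and 61.5 CPM and HDAC7 at 106 and 92.6 CPM, without overlap, while the groups of GORAB, ESRRA, NXPE3, C2CD3 and SETD2 overlap.

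Of 9 genes that overlap the exons of a member on the other strand, 6 were tested. Of these, 2 rose, 0 fell and 4 did not pass an adjusted p of 0.05 in edgeR, which 15.8% of all genes tested passed. TRMT112 overlaps 284 exon bases of ESRRA (9.16%), TMED5 overlaps 463 of CCDC18 (6.08%), and the unnamed gene ENSG00000268069 overlaps 963 of HDAC7 (9.70%). The log2 fold change of CCDC18-AS1, which shares 72 bases with CCDC18, was 0.31 ± 0.07 (SE, edgeR adjusted p = 0.00636, n = 3 per group). That of SLC48A1, which shares 30 bases with HDAC7, was 0.21 ± 0.05 (SE, edgeR adjusted p = 0.0192, n = 3 per group). Whether reads were assigned across strands was not tested.

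Partner genes of the 8 were counted from lists of their known pathways. Of 57 partner genes, 53 were tested, 4 rose, 7 fell and 42 did not pass an adjusted p of 0.05 in edgeR (15.8% of all 21045 genes tested passed, 1717 higher and 1616 lower), and their median log2 fold change was 0.02 against 0.01 over all genes. Among estrogen-related receptors and their coregulators, 4 of 5 tested genes fell and 0 rose, a count given with no test of the list. The smallest p was that of PPARGC1B, a coactivator of ESRRA, whose mean went from 36.2 ± 3.72 to 24.9 ± 1.35 CPM (log2 fold change −0.54 ± 0.07 SE, edgeR adjusted p = 0.000409). MEF2C, a transcription factor bound by HDAC7, fell from 201 ± 6.34 to 169 ± 6.05 CPM (−0.25 ± 0.05, edgeR adjusted p = 0.00299), and 2 of 10 genes in the deacetylase list fell. VPS16, a HOPS subunit, rose from 17.2 ± 1.16 to 22.4 ± 0.33 CPM (0.38 ± 0.07, edgeR adjusted p = 0.00203), the only one of 14 late endosome and lysosome genes to pass. TTBK2, a kinase that starts cilium assembly, rose by 0.36 ± 0.07 on the log2 scale (edgeR adjusted p = 0.00467), 1 of 11 genes in the centriole and cilium list. NSD2, a methyltransferase for dimethylation of the same histone residue as SETD2, rose by 0.20 ± 0.04 (edgeR adjusted p = 0.00586). In that list of 10 genes 2 rose and 1 fell. Of the Golgi list, 0 of 3 passed, and NXPE1, NXPE2 and NXPE4 were too low to test. An exon event passed the filter in 44 of the 57 partner genes, and 0 had one called in counts or in TPM.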

How the data were processed

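Polyadenylated RNA of 6 libraries was sequenced in pairs of 150 cycles. The authors quantified transcripts with Salmon 1.10.2, and the submitters' processing notes name hg38. The deposited values are an estimated count per transcript, not scaled for depth or length, and TPM, which the authors' Salmon run scaled by effective length to 1000000 per library. The index, strand and bias settings were not given in the sources used here. Between libraries the effective length of the same transcript differed by a median of 3.02% and at most 18.4% over 110 transcripts of the 8 genes with a mean of at least 10 counts.

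Transcripts were matched to GENCODE 44 (GRCh38): 251142 of 252045 with version, 470 without, and 433 not matched, which held 0.125% to 0.138% of a library. Skipped-exon events were built from the annotation, kept at a mean of at least 1 TPM and 10 counts, and fitted with limma 3.58.1 (R 4.3.3) on the log2 ratio of included to skipped. Gene sums, rounded to whole numbers, with a mean above 10 were fitted with edgeR 4.0.16 (quasi-likelihood, TMM). The study's limits (adjusted p under 0.05, 5 points, log2 fold change above 1) were used. Its splicing calls came from aligned junction reads, which were not analysed here. Exact permutation of 3 against 3 cannot go below p = 0.1.

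Named transcripts had at least 5% of a gene, the largest share difference or the lead exon. The 8 genes, the partner lists, the markers and the tests were chosen with earlier results of these data known. Partner genes named were the 5 with the smallest p. The fits were also run on simulated data, but no outcome of that is given here, so it lends the calls no weight. Alternatives changed the pseudocount, filter, tool (DESeq2 1.42.0), normalization, replicates and replicate block.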

Additional observations from a re-analysis of the deposited data

How the results depend on the processing

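The 12 events called on counts became 19 with a pseudocount of 0.1, 1 with 10, 26 without a filter, 3 with a mean of 5 TPM and 50 counts, and 6 with a limit of 10 points, and 11 to 19 with a library left out (19 without +Dox replicate 2 or 3). The 6 genes with a called event on counts became 1 with a pseudocount of 10, 2 with the stricter filter, 2 with 10 points, and 2 to 5 with a library left out (2 without +Dox replicate 3, 3 without each of the −Dox replicates in turn). On TPM the 0 events and 0 genes became 16 and 3 with a pseudocount of 0.01 TPM. Transcript shares called went from 7 to 128 on counts and from 12 to 37 on TPM without a filter, and to 11 to 21 and 19 to 33 with any of the 6 libraries left out. Genes called went from 308 to 515 with any count kept, 259 by DESeq2, and 231 to 313 with a library left out. With the replicate number as a term (replicate block), 0 events, 0 of the 8 genes, 4 transcript shares on counts and 0 on TPM were called. Same-numbered libraries had correlations of deviations of −0.066, −0.16 and 0.024. The labels link them only by that number, and whether they shared a culture or batch was not tested. The log2 fold change of the gene total turned for GORAB without −Dox replicate 2 (range with a library left out −0.041 to 0.095), for C2CD3 without +Dox replicate 2 (−0.0079 to 0.102) and for SETD2 without −Dox replicate 1 (−0.065 to 0.0064). The cause was not tested for any of these. Depth sets the limits on skipped shares given above, from 0.0586% in SETD2 to 5.61% in GORAB.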
